A study of Mus musculus with 6 samples.

Results

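The genes described here encode the subunits of the mitochondrial oxidative phosphorylation complexes, together with a few assembly factors. They were chosen by the symbol that the array annotation gives a probe set, namely every symbol starting with Nduf, Uqcr, Atp5, Sdha to Sdhd, or Cox4 to Cox8. This gave 94 genes, read by 185 probe sets, of 18193 genes on the array. Each gene was represented by the probe set with the highest mean over the arrays. Another 10 probe sets with a matching symbol list several genes and were left out.

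Of the 94 genes, 81 encode subunits, with 34 in complex I, 4 in complex II, 8 in complex III, 18 in complex IV and 17 in complex V. The remaining 13 start with the same letters but are not subunits. They are 8 complex I assembly factors (Ndufaf1 to Ndufaf8), 4 complex II assembly factors (Sdhaf1 to Sdhaf4) and Cox7a2l, which helps complexes III and IV join into supercomplexes. Ndufa4 and its paralogue Ndufa4l2 were placed with complex IV, where the Ndufa4 protein is now known to reside.

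Oxidative phosphorylation makes most of the ATP of many cells. Complexes I and II pass electrons from NADH and succinate to ubiquinone, complex III passes them to cytochrome c, and complex IV reduces oxygen to water. The protons pumped on the way drive complex V, the ATP synthase. Endothelial cells are known to rely largely on glycolysis for ATP and to use their mitochondria also for signalling and biosynthesis. PPARG, a nuclear receptor activated by fatty acid ligands, and its coactivator Ppargc1a are linked to mitochondrial gene expression mainly in fat and muscle.

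RNA was measured in 3 primary aortic endothelial cell cultures of transgenic mice and 3 of non-transgenic mice, all of strain C57 and none treated. The transgene is a dominant negative human PPARG (V290M) under the endothelial CDH5 promoter, so the model changes PPARG only where that promoter is active. Per the labels, 10 mice per group gave 5 cultures of 2 mice each, and the RNA of 3 cultures per group was arrayed. The replicates are therefore separate cultures of pooled animals, and n = 3 in each group throughout.

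Levels are given as log2(signal + 16). A difference is the transgenic mean less the non-transgenic mean of these levels, and the added 16 makes it too small for dim genes. The level of a probe set also depends on its probes, so levels of different genes are not compared as transcript amounts. Tests were made across all 11208 genes above a level filter (a mean log2 level of 7.717), by limma with Benjamini-Hochberg adjustment at 0.05. Of the 94 genes, 90 passed that filter, and Ndufb4, Cox7b2, Cox8b and Cox8c lay under it. Ndufb4 did so by a dim probe set. A left-out probe set that lists it with Ndufb4b and Ndufb4c was at 13.81 to 14.09 over the 6 arrays. In RNA of whole cultures, fewer cells of a type and less RNA per cell cannot be told apart.

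Several facts of the whole set of arrays touch these results. Transgenic replicate 3 correlated with the non-transgenic arrays at 0.967 to 0.974 (Spearman, across the tested genes) and with transgenic replicates 1 and 2 at 0.927 and 0.887. The median signal was 173 to 186.1 on the transgenic and 219.9 to 222.9 on the non-transgenic arrays. The 3' to 5' ratio of the Gapdh control probe sets was 1.20 to 1.44 on the transgenic and 1.51 to 1.71 on the non-transgenic arrays. That of actin was 1.40 to 2.21 on the transgenic and 1.83 to 2.17 on the non-transgenic arrays, so it did not separate the groups, and transgenic replicate 3 had the highest. Of 15 endothelial markers 5 passed the level filter, namely Eng, Flt1, Emcn, Egfl7 and Tek. Cdh5, Pecam1, Nos3, Tie1 and Cldn5 were among those under it. The labelled cell type was thus not borne out by these defining markers, while the 5 named first lay above the filter. The summed signal of the 15 was 7465 to 11570 in the transgenic and 5535 to 8561 in the non-transgenic cultures. All 12 fibroblast markers passed it.

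Most subunits of the 5 complexes differed little between transgenic and non-transgenic cultures, while 4 of 5 tested variant isoforms of complex IV had higher levels in the transgenic ones, none past the test. Ndufa4l2 had the largest difference of the 90 tested members, at 2.03 ± 0.45 (SE, n = 3 per group), a 4.07-fold higher signal. It was followed by Cox4i2 at 1.16 ± 0.46 and Cox6b2 at 0.9996 ± 0.29. No member passed the test: limma called 0 of 90 members and 0 of 11208 genes (0%) at an adjusted p of 0.05, with a smallest adjusted p = 0.428 over all genes. Without transgenic replicate 3 limma called 5 members (5.56%), all higher, where 6.88% of all genes were called higher and 7.83% lower. These were Ndufa4l2, Cox6b2, Ndufb2, Sdhd and Atp5g1. That array was singled out because it resembles the non-transgenic arrays in these same values. A fit without it therefore tends to widen differences, and here and below its p-values are descriptions and no independent support. Leaving out any other single array gave 0 called genes. With array weights limma called 43 members higher (47.8%, against 22.8% of all genes) and 2 lower (2.22%, against 26.3%), in a fit that gave transgenic replicate 1 a weight of 5.24, non-transgenic replicate 2 one of 4.65 and transgenic replicate 3 one of 0.177.

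An unadjusted p under 0.05 was found for 5 members higher (5.56%, against 6.47% of all tested genes) and 1 lower (1.11%, against 5.02%). The higher ones were Ndufa4l2, Cox6b2, Cox4i2, Ndufb2 and Uqcrq, and the lower one was Cox7c. The groups did not overlap for 8 members higher in the transgenic cultures (8.89%, against 9.39% of all genes) and for 3 lower (3.33%, against 6.72%). The 8 were Ndufa7, Ndufb1, Ndufb2, Ndufs5, Cox6b2, Ndufa4l2, Atp5g2 and Ndufaf5, and the 3 were Ndufs3, Cox6a1 and Cox7c. These shares lay near or under those of all genes, so the counts are no result about the members.

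The members varied little. The difference was smaller than 1.25-fold in size for 77 of the 90 (85.6%), against 61.2% of all tested genes, and larger than 2-fold for 2, Ndufa4l2 and Cox4i2. The median difference was 0.07 over the 90 members and -0.02 over all tested genes, and 65.6% of members lay above 0, against 47.5% of all genes. With the arrays scaled to an equal median signal instead, the median moved to 0.36 over the members and to 0.27 over all genes, so that 96.7% of members and 76.4% of all genes lay above 0. Relative to the median of all genes the members stood at 0.087 with the scaling as deposited, at 0.089 with this one and at 0.038 under quantile normalization. Over all alternatives this value ran from 0.024, without transgenic replicate 2, to 0.227, with array weights. The 95% confidence interval of the difference lay inside a 1.5-fold change in either direction for 64 members (71.1%), against 22.9% of all tested genes. The members' probe sets are bright, with a median level of 13.41 against 11.18, and their SE was smaller, with a median of 0.137 against 0.254.

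**Figure D1:**
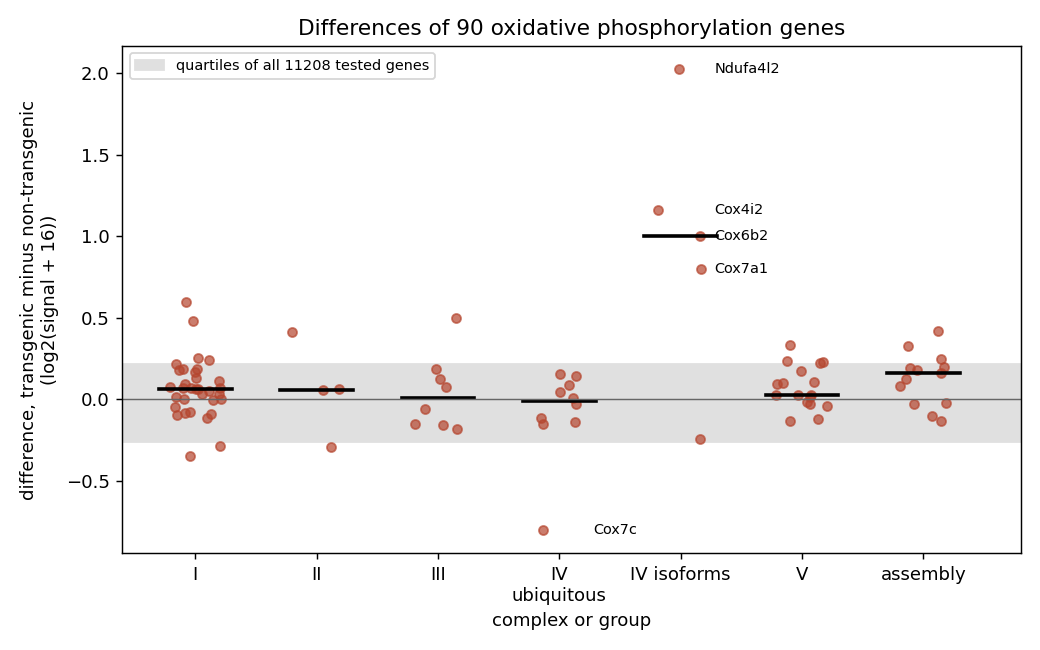
Difference of each of the 90 tested members (transgenic mean less non-transgenic mean of log2(signal + 16)), by complex, with complex IV split into ubiquitous subunits and variant isoforms. Points are genes, black bars the medians, and the grey band runs from -0.264 to 0.216, the quartiles of all tested genes. Ndufa4l2, Cox4i2, Cox6b2 and Cox7a1 stand between 0.80 and 2.03, and Cox7c at -0.80.

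Complex IV, cytochrome c oxidase, holds several nuclear subunits that exist in a ubiquitous form and in a form known from certain tissues or conditions. Ndufa4l2, a paralogue of Ndufa4 that is induced by the hypoxia-inducible factor HIF-1, was at 12.28, 11.29 and 10.37 in the transgenic cultures, against 9.56, 9.06 and 9.24 in the non-transgenic ones. All 3 transgenic cultures lay above every non-transgenic culture, replicate 3 being the lowest of them. The limma adjusted p was 0.428 over all 6 arrays and 0.00538 without transgenic replicate 3, where the difference was 2.50. Leaving out transgenic replicate 1 gave 1.54. Ndufa4 itself was at 13.98, 13.92 and 13.54 in the transgenic cultures, against 13.99, 13.82 and 14.10 in the non-transgenic ones. These groups overlapped, and the difference was -0.15 ± 0.15 (SE, limma adjusted p = 0.679, 95% interval -0.50 to 0.19), reversing to 0.14 at equal median signal.

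Cox4i2, the form of subunit 4 known from lung and from cells at low oxygen, was at 10.46, 9.56 and 9.08 in the transgenic cultures, against 9.26, 8.29 and 8.06 in the non-transgenic ones. Transgenic replicate 3 lay below non-transgenic replicate 1, so the groups overlapped (limma adjusted p = 0.428, and 0.0568 without transgenic replicate 3). Its ubiquitous counterpart Cox4i1 differed by 0.05 ± 0.12 (SE, limma adjusted p = 0.888, 95% interval -0.23 to 0.33).

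Cox6b2, a form of subunit 6b known from testis and sperm, was at 12.28, 12.73 and 11.98 in the transgenic cultures, against 11.85, 11.19 and 10.96 in the non-transgenic ones. The groups did not overlap, and the 2 nearest values were transgenic replicate 3 and non-transgenic replicate 1. The limma adjusted p was 0.428, and 0.0315 without transgenic replicate 3. The counterpart Cox6b1 differed by 0.14 ± 0.12 (SE, limma adjusted p = 0.621, 95% interval -0.13 to 0.41).

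Cox7a1, the heart and skeletal muscle form of subunit 7a, which is also a gene of brown fat, was at 8.86, 8.74 and 8.21 in the transgenic cultures, against 8.38, 7.47 and 7.57 in the non-transgenic ones. Replicate 3 of the transgenic group again lay below replicate 1 of the other (difference 0.80 ± 0.36, SE, limma adjusted p = 0.439). Its counterpart Cox7a2, present in all tissues, was at 14.78, 14.71 and 14.55 in the transgenic cultures, against 14.81, 14.73 and 14.92 in the non-transgenic ones, a difference of -0.14 ± 0.10 (SE, limma adjusted p = 0.565).

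The remaining variant forms were dim. Cox6a2, the muscle form of subunit 6a, differed by -0.25 ± 0.32 (SE, limma adjusted p = 0.761, and 0.03 under quantile normalization), and Cox6a1, present in all tissues, by -0.11 ± 0.09 (limma adjusted p = 0.590, and 0.18 at equal median signal). Cox7b2, Cox8b and Cox8c lay under the level filter and were not tested. Cox8b, the heart, muscle and brown fat form of subunit 8, was at 7.21, 6.95 and 6.91 in the transgenic cultures, against 8.02, 7.38 and 7.08 in the non-transgenic ones. Cox8a, its counterpart, differed by -0.03 ± 0.14 (SE, limma adjusted p = 0.944).

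**Figure D2:**
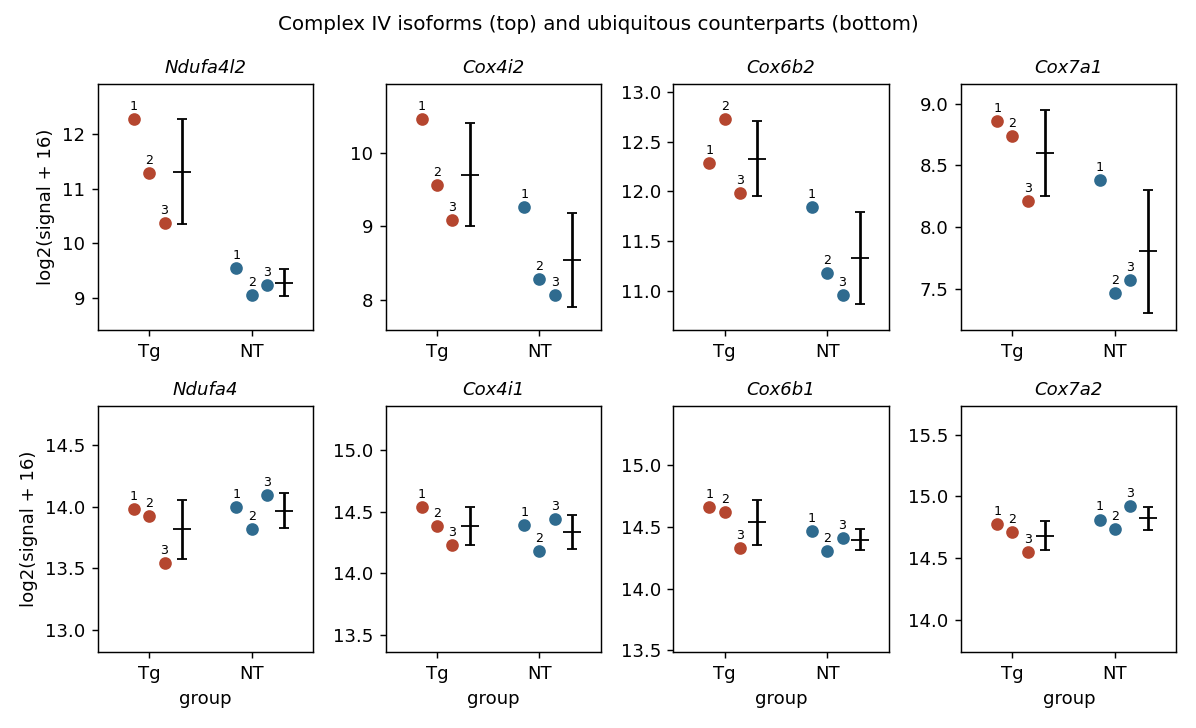
Levels of 4 variant complex IV genes (top) and of their ubiquitous counterparts (bottom) in the transgenic (Tg, left, red) and non-transgenic (NT, right, blue) cultures, as log2(signal + 16) on a separate axis per gene. Numbers mark replicates, and bars are the mean ± SD of 3 cultures. Ndufa4l2 and Cox6b2 do not overlap between the groups, while the counterparts differ by 0.15 or less in size.

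Promoter windows of 250 bases before to 50 bases after the start of transcription were found in RefSeq (GRCm38.p6) for 78 of the 94 genes. Ndufa4l2 and Cox4i2 had none, so the shares below do not cover them. The windows found were searched on both strands for GCGCA directly followed by its reverse complement. That is the site of the nuclear respiratory factor NRF1, a known activator of respiratory chain genes. It occurred in 6 windows (7.69%), of Uqcrc1, Cox6a1, Atp5g2, Atp5k, Ndufaf4 and Ndufaf5, against 0.977% of 27025 promoter windows of the same length. CCGGAAGT, an ETS site bound by GABP, occurred in 6.41% against 4.0% of all windows. ACGTG, the core of hypoxia response elements, occurred in 25.6% against 19.7%, and TCAAGGTCA, an estrogen-related receptor site, in 2.56% against 0.407%. AGGTCA repeated after any 1 base, the PPAR type of direct repeat, shares its AGGTCA with the preceding motif. It occurred in 0 of the 78 windows and in 0.0444% of all. The other motifs share no such stretch.

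The upstream 250 bases are shown for 3 of the genes whose groups did not overlap, in gene orientation and with any match to these motifs in capitals. Cox6b2 lay higher and its stretch holds no match. Atp5g2 lay higher and Cox6a1 lower, and both hold the NRF1 motif (the difference of Cox6a1 turning positive at equal median signal). Of the 6 genes with that motif, 5 had a difference above 0, from 0.08 for Uqcrc1 to 0.42 for Ndufaf5, and Cox6a1 was the other one. Among all tested members 65.6% lay above 0. A second probe set above the filter had the opposite sign for Ndufaf4 (-0.56) and for Cox6a1 (0.09). Those of Atp5k kept its sign (0.18 and 0.39). The count therefore rests in part on the choice of probe set. A match is a description of letters and not a site.
Cox6b2 (GRCm38.p6, chr7:4753095-4753344, minus strand): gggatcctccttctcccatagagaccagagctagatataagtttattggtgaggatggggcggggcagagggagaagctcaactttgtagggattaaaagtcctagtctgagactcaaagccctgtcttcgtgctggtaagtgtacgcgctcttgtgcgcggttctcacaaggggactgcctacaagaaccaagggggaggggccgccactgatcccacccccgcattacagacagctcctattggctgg
Atp5g2 (GRCm38.p6, chr15:102671048-102671297, minus strand), with ACGTG matched on the opposite strand and then the NRF1 motif: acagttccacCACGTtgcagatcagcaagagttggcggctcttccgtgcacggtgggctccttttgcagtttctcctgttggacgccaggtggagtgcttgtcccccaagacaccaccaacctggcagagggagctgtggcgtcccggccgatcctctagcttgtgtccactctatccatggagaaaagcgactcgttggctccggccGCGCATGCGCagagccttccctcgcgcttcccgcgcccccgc
Cox6a1 (GRCm38.p6, chr5:115348959-115349208, minus strand), with the NRF1 motif: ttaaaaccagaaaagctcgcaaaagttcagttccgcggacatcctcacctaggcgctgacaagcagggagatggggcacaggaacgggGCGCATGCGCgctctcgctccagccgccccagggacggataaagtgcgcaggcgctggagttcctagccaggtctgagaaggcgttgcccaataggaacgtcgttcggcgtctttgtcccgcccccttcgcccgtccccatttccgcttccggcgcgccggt

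Genes known to respond to low oxygen were read beside these isoforms, and their part in the result was not tested. Of 16 tested hypoxia and glycolysis genes, 14 lay higher, with a median difference of 0.49, where 47.5% of all tested genes lay higher. An unadjusted limma p under 0.05 was found for 7 of the 16, all higher, against 6.47% of all tested genes. Limma called 0 of them in either direction. Without transgenic replicate 3 the median was 0.75 and limma called 9 of the 16, all higher. Their median over the non-transgenic mean was 0.80, 0.69 and -0.02 in the transgenic cultures, against 0.07, -0.09 and 0.00 in the non-transgenic ones. Single genes of the list stood higher than that median in transgenic replicate 3, where Pfkp was at 12.93, against 12.01, 12.44 and 12.27 in the non-transgenic cultures. Pdk1, the kinase that switches off pyruvate dehydrogenase and so limits the fuel of respiration, differed by 1.82 ± 0.59 and the phosphofructokinase Pfkl by 1.20 ± 0.34 (SE, limma adjusted p = 0.428 each, and 0.00206 and 0.0102 without transgenic replicate 3). The 2 lower genes of the list were Adm at -0.35 ± 0.16 and Ddit4 at -0.12 ± 0.13 (SE, limma adjusted p = 0.440 and 0.718). For Adm every transgenic culture lay below every non-transgenic one. Among the 14 higher genes, Bnip3, Aldoa and Vegfa differed by 0.002, 0.013 and 0.10.

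Markers of leukocytes and macrophages and genes of the cell cycle were read in the same cultures. The summed signal of 15 leukocyte and macrophage markers was 11592, 22240 and 4853 in the transgenic cultures, against 4934, 3279 and 3888 in the non-transgenic ones, with 4 markers above the filter and 0 called (2, Csf1r and Cd53, without transgenic replicate 3, both higher). Cd53 was the brightest of the 15 in transgenic replicates 1 and 2 and so weighs most in their sums. It was at 12.65, 13.29 and 8.435 in the transgenic cultures, against 10.41, 8.60 and 7.74 in the non-transgenic ones. Ptprc, present on all leukocytes, lay under the filter, at 5.89, 5.83 and 5.88 in the transgenic cultures, against 7.66, 5.96 and 7.16. All 19 tested cell cycle genes had a difference above 0, with a median of 1.13 and 0 called, while without transgenic replicate 3 the median was 1.67 and limma called 18 of the 19, all higher. In transgenic replicate 3 the summed leukocyte signal lay inside the non-transgenic range, but Csf1r, a receptor of macrophages, was at 10.59, against 8.94, 9.06 and 8.61 in the non-transgenic cultures. The part of either list in the isoform result was not tested.

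Ndufa4l2 and Cox4i2 are also known from pericytes, the cells that wrap small vessels. Of 14 smooth muscle and pericyte markers, 9 passed the filter, 4 higher and 5 lower, with a median difference of -0.01 and 0 called. Smtn differed by 0.51 ± 0.31 and Myocd by 0.53 ± 0.49 (SE, limma adjusted p = 0.515 and 0.656). Pdgfrb, Notch3, Rgs5, Kcnj8 and Abcc9 also passed, at -0.09, -0.01, -0.01, 0.05 and -0.62. The summed signal of this list was 37877 to 50424 in the transgenic and 34502 to 51186 in the non-transgenic cultures, so the groups overlapped. Under the filter, Higd1b, a marker of pericytes, Des and Cspg4 differed by 0.98, 2.23 and 0.42, and the groups overlapped for each. Des was at 5.14, 8.03 and 8.35 in the transgenic cultures, against 5.55, 4.46 and 4.83 in the non-transgenic ones. For Higd1b these levels were 6.74, 6.20 and 6.58, against 4.54, 6.25 and 5.79. Cspg4 was highest in non-transgenic replicate 1. Myh11 and Cnn1, also under it, differed by -0.06 and -0.37.

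Cox7a1 and Cox8b are known to be abundant in muscle and brown fat, so markers of these tissues were read. White and brown adipocyte markers had a summed signal of 2410 to 11425 in the transgenic and 8699 to 50672 in the non-transgenic cultures, the highest being non-transgenic replicate 1. That culture also had the highest non-transgenic level of Cox8b, Cox7a1, Cox4i2, Cox6b2 and Ndufa4l2, though not of Cox6a2. Its summed leukocyte signal and its cell cycle median were the highest of its group too. The part of the adipocyte signal in the isoform levels was not tested. Of 7 tested adipocyte markers, 7 lay lower and 0 were called, led by Slc2a4 at -2.96 ± 0.99 and Adipoq at -2.44 ± 0.996 (SE, limma adjusted p = 0.428 each). Ucp1, Cidea and Elovl3, known from brown fat, lay under the filter and were not tested. Their differences were -0.295, 0.15 and 0.275. Lep and Pck1, also under it, differed by -1.096 and -0.035. Of 15 skeletal and cardiac muscle markers, 3 passed the filter and 0 were called, Myh1 at -2.16 ± 0.66, Actn3 at -0.79 ± 0.52 and Mb at 0.11 ± 0.30 (SE, limma adjusted p = 0.428, 0.541 and 0.890). The other 12, among them Ckm and Acta1, lay under it. Without transgenic replicate 3 limma called 2 adipocyte markers (Slc2a4 and Adipoq) and 1 muscle marker (Myh1), all lower. The summed signal of the 15 muscle markers was 1131 to 2279 in the transgenic and 1763 to 3042 in the non-transgenic cultures.

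Among the ubiquitous complex IV subunits the median difference was -0.01 over 10 genes, with 5 above and 5 below 0. Cox7c, a small subunit, stood apart and is named after its values were seen. Even its brightest probe set is dim, with a mean level of 8.40, where the median level of these 10 genes was 14.39. Its difference therefore rests on dim probe sets alone. It was at 8.13, 7.44 and 8.43 in the transgenic cultures, against 8.65, 8.73 and 9.03 in the non-transgenic ones. Every transgenic culture lay below every non-transgenic culture, by -0.80 ± 0.34 (SE, limma adjusted p = 0.430). Both probe sets of Cox7c gave the same order of groups, the dimmer one lying under the filter at -0.55. Without transgenic replicate 2 the difference was -0.52.

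Complex I, NADH dehydrogenase, had 33 of 34 subunits above the filter, 22 with a difference above 0 and 11 below. The median difference was 0.07, the range ran from -0.35 (Ndufa6, at -0.06 without transgenic replicate 2) to 0.59 (Ndufb1), and the 95% interval lay inside a 1.5-fold change for 29. The 6 core subunits, which belong to the conserved catalytic core, had a median of -0.07, with 2 above 0. The 27 tested supernumerary subunits, which surround and stabilise the core, had a median of 0.07, with 20 above 0. The difference between these subsets was not tested. Ndufa11 and Ndufs6 were read only by left-out probe sets, which list another gene too, and were not tested. The brighter one of Ndufa11 was at 13.44, 13.32 and 13.49 in the transgenic cultures, against 12.88, 13.06 and 13.20 in the non-transgenic ones. That of Ndufs6 was at 13.28, 13.39 and 13.34, against 13.05, 13.045 and 13.23. On the dim probe set of Ndufa11 the groups overlapped.

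Ndufb2, a supernumerary subunit of the membrane arm, was at 12.70, 12.65 and 12.32 in the transgenic cultures, against 12.16, 11.92 and 12.15 in the non-transgenic ones. The groups did not overlap, and the difference was 0.48 ± 0.17 (SE, limma adjusted p = 0.428, and 0.0402 without transgenic replicate 3). Its second probe set above the filter differed by 0.38. With the mean of all its probe sets, a dim one under the filter included, it was 0.13.

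Ndufa7, another supernumerary subunit, was at 13.72, 13.55 and 13.51 in the transgenic cultures, against 13.41, 13.27 and 13.35 in the non-transgenic ones (0.25 ± 0.12, SE, limma adjusted p = 0.449). All 5 of its probe sets lay higher, by 0.25 to 0.52, and on 4 of them the groups did not overlap. Ndufb1, whose probe set is dim, was at 9.14, 8.30 and 8.53 in the transgenic cultures, against 8.11, 7.94 and 8.14 in the non-transgenic ones (0.59 ± 0.31, SE, limma adjusted p = 0.468). Without transgenic replicate 1 its difference was 0.35. These 3 genes were thus higher in all transgenic cultures, none past the threshold.

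Of the 2 complex I subunits with the highest signal, Ndufc1 differed by 0.17 ± 0.11 and Ndufb11 by -0.08 ± 0.10 (SE, limma adjusted p = 0.534 and 0.752). That of Ndufb11 reversed to 0.21 at equal median signal, to 0.06 with array weights and to 0.04 with the mean of its probe sets.

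Complex II, succinate dehydrogenase, is also an enzyme of the tricarboxylic acid cycle. Sdha, its flavoprotein, was at 13.59, 13.18 and 13.78 in the transgenic cultures, against 13.98, 13.69 and 13.76 in the non-transgenic ones. The groups overlapped through transgenic replicate 3 (-0.29 ± 0.17, SE, limma adjusted p = 0.510), and leaving out transgenic replicate 2 gave -0.12. Sdhb, the iron-sulfur subunit, differed by 0.05 ± 0.16 and Sdhc, a membrane anchor, by 0.06 ± 0.16 (SE, limma adjusted p = 0.902 and 0.881).

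Sdhd, the other anchor, was at 14.16, 14.03 and 13.56 in the transgenic cultures, against 13.78, 13.31 and 13.43 in the non-transgenic ones. The value of transgenic replicate 3 fell between those of the non-transgenic cultures (0.41 ± 0.19, SE, limma adjusted p = 0.446, and 0.0419 without that culture). Its second probe set differed by only 0.10, so the size of this difference rested on the choice of probe set. The 4 subunits of complex II thus spanned both signs.

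Complex III, the cytochrome bc1 complex, had a median difference of 0.01 over 8 subunits, 4 above and 4 below 0. Uqcrq, a small subunit also called the ubiquinone-binding protein, was at 12.43, 12.33 and 11.94 in the transgenic cultures, against 12.00, 11.55 and 11.64 in the non-transgenic ones. Transgenic replicate 3 lay just under non-transgenic replicate 1 (0.50 ± 0.21, SE, limma adjusted p = 0.428). Its 3 other probe sets lay under the filter.

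Uqcrc2, a core protein, differed by -0.18 ± 0.14 and Uqcr11, a small subunit, by 0.19 ± 0.15 (SE, limma adjusted p = 0.592 and 0.607). The subunits with the highest signal, Uqcrb and Uqcrh, the hinge protein, differed by -0.15 ± 0.12 and -0.06 ± 0.10 (SE, limma adjusted p = 0.617 and 0.813). These 3 negative differences turned positive at equal median signal.

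Complex V had 17 of 17 subunits above the filter, 12 with a difference above 0, and a median of 0.03. The range ran from -0.13 (Atp5a1) to 0.33 (Atp5g1), and the 95% interval of 15 lay inside a 1.5-fold change. The c subunit forms the rotating ring and is encoded by 3 genes that give the same mature protein. Atp5g1 was at 13.52, 13.76 and 13.12 in the transgenic cultures, against 13.24, 13.01 and 13.14 in the non-transgenic ones (0.33 ± 0.18, SE, limma adjusted p = 0.472, and 0.0447 without transgenic replicate 3). Here too transgenic replicate 3 fell between the non-transgenic cultures, and without transgenic replicate 2 the difference was 0.19. A second, dim probe set of Atp5g1 differed by -0.21.

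Atp5g2 was at 13.36, 13.34 and 13.19 in the transgenic cultures, against 12.98, 13.04 and 13.16 in the non-transgenic ones (0.23 ± 0.12, SE, limma adjusted p = 0.471). Its groups did not overlap, with transgenic replicate 3 just above non-transgenic replicate 3, and its upstream stretch holds the NRF1 motif. Atp5g3, the remaining c gene, named after its values were seen, differed by -0.03 ± 0.11 (SE, limma adjusted p = 0.929). Atp5e, the epsilon subunit of the F1 head, differed by 0.22 ± 0.13 (SE, limma adjusted p = 0.503). Atp5h, of the peripheral stalk, and Atp5a1, the alpha subunit, differed by -0.12 ± 0.10 and -0.13 ± 0.09 (SE, limma adjusted p = 0.601 and 0.556), both turning positive at equal median signal.

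**Figure D3:**
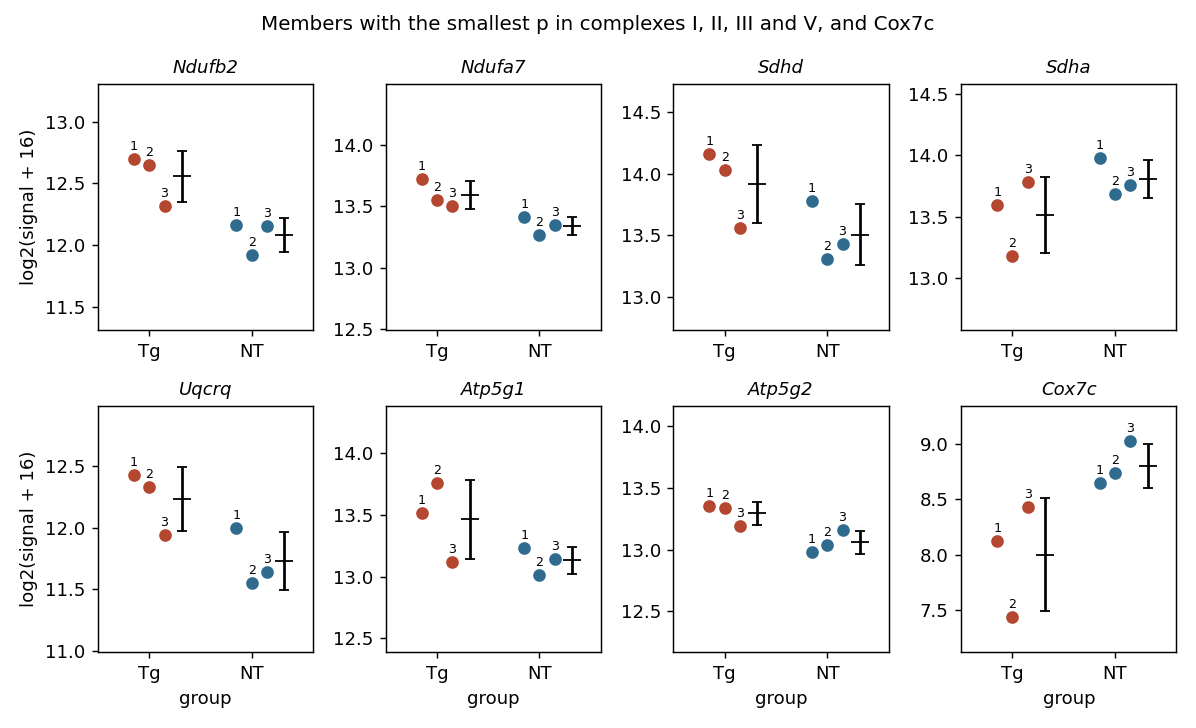
Levels of 8 members in the transgenic (Tg, left, red) and non-transgenic (NT, right, blue) cultures, as log2(signal + 16) on a separate axis per gene, with replicate numbers and the mean ± SD of 3 cultures. In Ndufb2, Ndufa7 and Atp5g2 all transgenic cultures lie higher, in Cox7c all lie lower, and in Sdhd, Uqcrq, Atp5g1 and Sdha transgenic replicate 3 overlaps the non-transgenic cultures.

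Single cultures shifted whole complexes. The median over the members of complex I, measured from each gene's non-transgenic mean, was 0.11, 0.06 and 0.01 in the transgenic cultures, against 0.06, -0.11 and 0.05 in the non-transgenic ones. For complex V these medians were 0.19, 0.11 and -0.07 in the transgenic cultures, against 0.04, -0.12 and 0.09 in the non-transgenic ones. Neither complex separated the groups.

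A pattern shared by the complexes was the place of 2 single cultures. Non-transgenic replicate 2 was the lowest of its group for 67 of 90 members (74.4%), against 25.2% of all tested genes. Transgenic replicate 3 was the lowest of its group for 62 (68.9%), against 34.4% of all tested genes. It was the lowest for 16 of 17 complex V subunits and for 1 of 6 complex I core subunits. Genes measured on the same arrays are not independent, and these shares are descriptions of the 6 cultures.

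**Figure D4:**
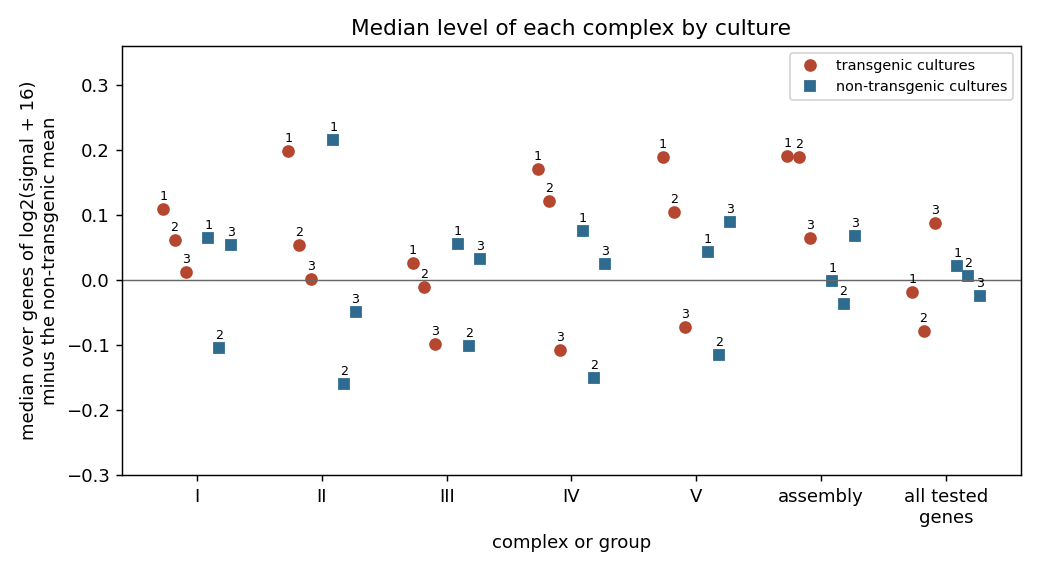
Median over the tested genes of each complex of log2(signal + 16) minus the gene's non-transgenic mean, per culture, with transgenic cultures as red circles (left of each pair) and non-transgenic cultures as blue squares. In complexes I to V the groups overlap, non-transgenic replicate 2 is the lowest non-transgenic culture, and transgenic replicate 3 is the lowest transgenic one.

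The 13 assembly proteins had a median difference of 0.16, 9 above 0 and 4 below, and 0 were called by limma. Ndufaf5, a complex I assembly factor that hydroxylates a core subunit in human cells, was at 10.73, 10.55 and 10.53 in the transgenic cultures, against 9.96, 10.35 and 10.25 in the non-transgenic ones, with no overlap (0.42 ± 0.22, SE, limma adjusted p = 0.468). Ndufaf7, which methylates a core subunit in human cells, differed by 0.25 ± 0.19 (SE, limma adjusted p = 0.589). A list of 26 further assembly factors outside the symbol rule had a median difference of 0.13, with 22 above 0, against 47.5% of all tested genes. An unadjusted limma p under 0.05 was found for 4 of them, all higher, against 6.47% of all tested genes. Limma called 0 (1 without transgenic replicate 3, higher). Pet100, which helps build complex IV, differed by 0.61 ± 0.24, and Bcs1l, which inserts the Rieske protein into complex III, by 0.52 ± 0.21 (SE, limma adjusted p = 0.428 each).

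Of the regulators of mitochondrial gene expression, 16 of 18 passed the filter, 10 above 0 and 6 below, with a median difference of 0.02 and 0 called (2 without transgenic replicate 3, both lower). Ppargc1a, the coactivator that drives mitochondrial biogenesis, was at 8.07, 7.56 and 8.91 in the transgenic cultures, against 9.30, 9.03 and 9.26 in the non-transgenic ones. Every transgenic culture lay below every non-transgenic one, replicate 3 by the smallest margin (-1.02 ± 0.38, SE, limma adjusted p = 0.428, and 0.0197 without transgenic replicate 3). Tfb2m, a mitochondrial transcription factor, differed by -0.30 ± 0.19 (SE, limma adjusted p = 0.534). The adipocyte markers described above lay lower in the same cultures, and their part in the level of Ppargc1a, a gene also active in fat, was not tested.

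The electron carriers and ubiquinone synthesis genes had a median difference of 0.00 over 15 genes, with 0 called. Etfa and Etfdh, which bring electrons from fatty acid oxidation to ubiquinone, differed by -0.28 ± 0.13 and -0.38 ± 0.19 (SE, limma adjusted p = 0.449 and 0.453). The tricarboxylic acid cycle genes, with the pyruvate dehydrogenase complex, had a median of -0.13 over 16 genes, 11 below 0 and 0 called. Pdha1 and Pdhb, the E1 subunits of pyruvate dehydrogenase, differed by -0.18 ± 0.12 and -0.23 ± 0.16 (SE, limma adjusted p = 0.544 and 0.556). Of 10 genes of proton leak, nucleotide exchange and ATP synthase inhibition, 5 passed the filter and 0 were called. Atpif1, the inhibitor of ATP synthase, differed by 0.24 ± 0.11 and Slc25a4, an ADP/ATP carrier, by -0.17 ± 0.12 (SE, limma adjusted p = 0.449 and 0.573).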

How the data were processed

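The deposited files hold an unlogged intensity for each probe set. The authors made them with MAS5, per the submitters' processing notes; the sources used here do not give its version. Per the labels, about 50 ng of RNA per culture was amplified before hybridization. Intensities spanned 0.1 to 67821.8. Trimming 2% at each end left a mean of 1500 on every array, so this scaling was kept. At most 0.142% of values were identical between any 2 arrays. The number of arrays limits the precision.

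Levels were computed as log2(intensity + 16). The 45101 probe sets include 64 controls; the array annotation lists 1 gene for 34945, several for 932 and none for 9160. RefSeq's gene table (GRCm38.p6) matched 34741 by gene identifier. Genes whose mean reached the median of the probe sets other than controls entered a two-sided limma test (version 3.58.1, R 4.3.3, lmFit, eBayes with trend). A run on simulated data with independent noise checked only that set differences are recovered on average. It does not bear on the resemblance of transgenic replicate 3 to the other group.

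The members, lists, motifs and the rule for genes named were chosen with earlier results of these data known. That rule takes the complex II subunits, in each other complex the 3 members of smallest p and the 2 of highest mean, the complex IV isoforms with their counterparts, and 2 genes of each list. Results were recomputed with other pseudocounts, filters, scalings and probe set choices, with array weights or a replicate block, with no trend in the variance, and leaving out each array.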

Additional observations from a re-analysis of the deposited data

How the results depend on the processing

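Under pseudocounts of 1 and 64, no filter, a filter at the 75th percentile, quantile normalization, equal median signal, no variance trend, the mean of all probe sets, no _x_at or _s_at probe sets, and every probe set on its own, limma called 0 genes and 0 members. Leaving out each array in turn gave 0 to 1649 called genes and 0 to 5 called members, all from the fit without transgenic replicate 3. With array weights limma called 5504 genes and 45 members. No pairing by replicate number was seen, as same-numbered deviations correlated at 0.042, -0.278 and -0.034. With 3 arrays per group these values cannot exclude a pairing. With a replicate block 0 genes and 0 members were called. The median differences of complexes I to V were 0.355, 0.349, 0.296, 0.336 and 0.318 at equal median signal, where that of all genes was 0.266, and 0.183, 0.287, 0.11, 0.213 and 0.216 with array weights. That of complex III ran from -0.085 to 0.116 when arrays were left out.

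Differences of single genes that changed sign were small. At equal median signal they were 0.207 for Ndufb11, 0.107 for Uqcrc2, 0.14 for Uqcrb, 0.228 for Uqcrh, 0.149 for Cox7a2, 0.176 for Cox6a1, 0.166 for Atp5h, 0.157 for Atp5a1, 0.021 for Cox6a2, 0.138 for Ndufa4 and 0.263 for Cox8a, by the construction of that scaling. With array weights they were 0.063 for Ndufb11, 0.022 for Uqcrb, 0.074 for Uqcrh, 0.016 for Atp5h and 0.082 for Ndufa4. Cox6a2 was at 0.03 under quantile normalization and Ndufb11 at 0.04 with the mean of probe sets. With arrays left out, Sdhc ran from -0.038 to 0.186, Sdhb from -0.052 to 0.184, Cox4i1 from -0.032 to 0.123 and Cox8a from -0.101 to 0.016. Ndufa4l2 ran from 1.54 to 3.02 and Cox6b2 from 0.80 to 1.29 over all alternatives, with adjusted p-values from 0.000144 and 0.000406 to 0.906, both called in 2 fits, those with array weights and without transgenic replicate 3. The cause of the changes was not tested.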

Other observations

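Of the 4 leukocyte and macrophage markers above the filter, 3 had a difference above 0. Csf1r, a receptor of macrophages, differed by 1.83 ± 0.26 and Cd53, a leukocyte tetraspanin, by 2.54 ± 1.245 (SE, limma adjusted p = 0.428 and 0.451), while Cd14 differed by -0.17 ± 0.40 (limma adjusted p = 0.870). Under the filter, Ptprc and Tyrobp had differences of -1.06 and -0.34. Of 8 mesothelial markers, 5 passed the filter, 3 higher and 2 lower, with a median difference of 0.27 and 0 called. Krt19 was at 1.385 ± 1.13, Wt1 at -0.79 ± 0.40 and Upk3b at -1.54 ± 1.03 (SE, limma adjusted p = 0.614, 0.460 and 0.549). Of 12 fibroblast markers, 0 were called, led by Thy1 at 0.90 ± 0.26 and Postn at -0.73 ± 0.25 (SE, limma adjusted p = 0.428 each). Of the endothelial markers, 0 were called, led by Flt1 at 1.01 ± 0.45 and Egfl7 at 0.44 ± 0.32 (SE, limma adjusted p = 0.439 and 0.578). Without transgenic replicate 3 limma called 1 mesothelial marker (Krt19) and 1 endothelial marker (Flt1) higher, and 1 fibroblast marker higher and 3 lower. Of the cell cycle genes, Mcm2 differed by 1.40 ± 0.33 and Rrm1 by 1.02 ± 0.31 (SE, limma adjusted p = 0.428 each, and 0.0133 and 0.00720 without transgenic replicate 3). The median of the cell cycle list over the non-transgenic mean was 1.39, 2.04 and 0.02 in the transgenic cultures, against 0.51, -0.18 and -0.30 in the non-transgenic ones.

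Transgenic replicate 3 stood above the non-transgenic mean by 1.08 in Ndufa4l2, 0.65 in Cox6b2 and 0.54 in Cox4i2, the 3 largest such values among the members. Ndufb1 followed at 0.465 and Cox7a1 at 0.40, while the median over the 90 tested members was -0.03.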
